A study of Homo sapiens with 6 samples.

Results

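The regions described here are the assembled loci of PC-3 prostate cancer cells that carry no gene symbol and lie in a stretch of over 3000 bases. They were chosen by their lack of a symbol, by the length of that stretch, by a position outside chromosome 8 and by an FPKM above 0 in both groups. FPKM is the number of sequenced fragments scaled to transcript length and to library size. Of the 406165 rows of the authors' table, 375963 had no symbol and 18487 of those met the length and chromosome rules. Among these, 618 were listed at 0 in the tdTom group alone, 706 at 0 in the TTP-tdTom group alone and 64 at 0 in both. The other 17099, or 4.21% of the table, are the members. PC-3 is an established human line of prostate carcinoma. Both groups expressed the rtTA2 transactivator of the Tet-On system and were treated with doxycycline (Dox) at 300 ng/ml for 4 hours. The control group expressed the red fluorescent protein tdTom and the other group TTP together with tdTom, with 3 samples in each. Cells had been selected with G418 and sorted for tdTom. The authors' table gives 1 value per group, without the spread between the 3 samples and without depth. All comparisons are therefore descriptions of 2 group values, and no test between the groups was made. Intervals given with medians and shares treat loci as separate observations and cover the spread over loci only, although many loci share a stretch of the genome.

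TTP, the product of ZFP36, is a zinc-finger protein that binds AU-rich elements in RNA and recruits the enzymes that shorten the poly(A) tail, after which the RNA is degraded. Its core binding motif is the heptamer TATTTAT in the DNA alphabet. RNA without a gene name can come from several sources. Cells make long noncoding RNAs from their own promoters, transcription runs past the ends of genes, introns are present in RNA that is not yet spliced, and promoters fire on the opposite strand. In a library that keeps the strand, RNA of a transcription unit lies on 1 strand. A TTP target need not be a coding mRNA.

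The control measurements are as follows. The FPKM of ZFP36 was 5.56 in tdTom and 5.54 in TTP-tdTom, so its own locus showed no excess in the group labelled TTP-tdTom. Where reads from the transgene were assigned was not tested. The epithelial keratin KRT18 had 98.2 in tdTom and 91.5 in TTP-tdTom, KRT8 had 20.9 and 19.1, and EPCAM had 15.1 and 16.8. For symbols at several rows (2 for CDH1 and PTPRC, 9 for COL1A1), the row with the highest mean is given. E-cadherin (CDH1) was at 0.119 and 0.390. Of the markers of other cells, PTPRC of leukocytes had 1.67 in tdTom and was listed at 0 in TTP-tdTom, PECAM1 of endothelium had 0.483 and 0.793, COL1A1 of fibroblasts had 4.34 and 4.56, and DES of muscle had 0.0878 and 0.0473. In 12092 named rows at 1 FPKM or more in each group, the log2 ratio of TTP-tdTom to tdTom had a median of -0.24.

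A row's coordinates gave the whole stretch of overlapping assembly and not the row's own transcript. The 406165 rows fell into 330835 distinct stretches, called spans here, and no pair of distinct spans overlapped. Length over 3000 bases is therefore a property of the span. The 17099 members lay in 4399 spans, and 16771 of them (98.1%) shared their span with at least 1 other row. Only 328 were alone, 12265 shared a span with other unnamed rows and 4506 shared one with a named row. By the order of the identifiers, 8467 members were on the plus strand and 8240 on the minus strand. A further 377 lay on decoy or unplaced sequence, and 15 on chromosomes had no strand. The last members inside the length rule were XLOC_161558 and XLOC_166267, opposite-strand rows of a span of 3002 bases, and XLOC_012228 in a span of 3003 bases. Their log2 ratios were 1.81, 1.01 and 0.95. Just outside it, 3 rows of a single span of 3000 bases (XLOC_206806, XLOC_214347 and XLOC_214348) had -0.43, -0.74 and -0.33.

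Not every member was without an identity. A RefSeq accession stood at 427 members, 15 of which had a symbol field that held commas alone, and 400 could be matched to a RefSeq gene. Of the 375 whose gene has a known strand, 134 lay on that strand and 241 on the other one. A row on the gene's own strand was read as a piece of that gene. With a mean FPKM of at least 1, 26 such rows were found, each of another gene, and 18 of these genes are long noncoding RNAs. All 18 have a transcript in GENCODE, and 2 hold the TTP heptamer on the transcript's strand, the only strand searched. That share of 11.1% is not above the 16.4% that noncoding transcripts of like length hold on average. Their first matches are printed here as 30 bases, 5′ to 3′, with the heptamer in capitals, since this heptamer is what TTP is known to bind. A match says only that the letters are present.
COX10-DT: ttgagttatctTATTTATtataatagtttt
SNRK-AS1: ctaggagttgaTATTTATtaagatgggtgc
The COX10-DT transcript (3000 bases) holds the heptamer once, at base 1841, and 33.0% of the noncoding transcripts within 20% of its length hold it. The SNRK-AS1 transcript (1990 bases) holds it once, at base 110, against 22.3% of transcripts of like length. COX10-DT (chr17:13932609-14114735, in the span of COX10, which encodes a factor of heme A synthesis) had 3.90 FPKM in tdTom and 2.51 in TTP-tdTom, a log2 ratio of -0.63, while COX10 itself had 11.8 and 13.2. SNRK-AS1 (chr3:43328004-43393454, antisense to the kinase gene SNRK) had 4.10 and 3.15, a log2 ratio of -0.38, and SNRK had 5.41 and 3.21. Both were lower in TTP-tdTom, within the range of the other 16.

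Of the 18 long noncoding RNAs, 13 had the lower value in TTP-tdTom, and of all 26 genes 19 did, with a median log2 ratio of -0.22. This is near the -0.24 of the named rows at 1 FPKM or more in each group, 80.5% of which were lower. Of the 26, 2 reached the mean of 1 only through tdTom and 2 only through TTP-tdTom, and of the other 22, 17 were lower. UGDH-AS1, antisense to the gene of UDP-glucose dehydrogenase on chromosome 4, was by far the highest, with 217 FPKM in tdTom and 230 in TTP-tdTom (0.08). HOXA10-AS, within the HOXA cluster of chromosome 7, had 18.2 and 14.7 (-0.31), and its neighbour HOXA10, a homeobox gene, had 8.86 and 3.62 (-1.29). LINC-ROR, known from the reprogramming of cells to pluripotency, was alone in its span (chr18:54721804-54739350) and had 4.20 and 3.12 (-0.43). HLTF-AS1 had the largest difference of the 18, with 4.42 and 1.98 (-1.16), and the helicase gene HLTF beside it had 99.8 and 49.7 (-1.0). PTCSC3, a thyroid cancer susceptibility transcript, had 1.47 and 0.875 (-0.75), under 1 FPKM in TTP-tdTom. The largest difference in the other direction was ZNF32-AS1, with 0.767 and 1.30 (0.76), which reached the mean of 1 through TTP-tdTom. Of the protein-coding genes that the table left without a symbol, the SUMO protease SENP1 had 24.0 and 22.0, the kinesin KIF18B 10.1 and 9.56, CRYBG3 7.87 and 4.76, and the EGF receptor ligand EPGN 4.05 and 3.04. Among all 134 rows on the gene's strand, down to the lowest levels, the median was -0.01, with 67 lower and 67 higher.

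Over all 17099 members the median FPKM was 0.716 in tdTom and 0.821 in TTP-tdTom. The median log2 ratio was 0.17 (95% interval 0.15 to 0.18), with quartiles of -0.54 and 0.78. This direction was not kept in the 2676 members of at least 1 FPKM in both groups (-0.10, 56.7% lower) or without chromosomes 10 and 14 (-0.036, 51.1% lower). In TTP-tdTom, 2641 members (15.4%) were lower by 2-fold or more, against 22.6% of all 299089 rows above 0 in both groups. A further 3375 (19.7%) were higher by 2-fold or more, against 37.4% of all rows. Relative to the median of the named rows of at least 1 FPKM, 2045 were lower and 4374 higher by 2-fold. By any amount, 7276 (42.6%) were lower, against 41.8% of all rows. The share of lower members was thus near that of the whole table, and changes of 2-fold were less frequent in both directions. Of the 24056 named rows over 3000 bases, 10.7% were lower and 12.2% higher by 2-fold, with a median of -0.12. Of the 221725 unnamed rows in spans of 3000 bases or less, 25.3% were lower and 41.7% higher, with a median of 0.55. The members lay between these sets, as the plot of the ratio in 3 sets of rows shows. Relative to the median of the named rows of at least 1 FPKM (-0.24), the members' median was 0.41 higher.

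**Figure D1:**
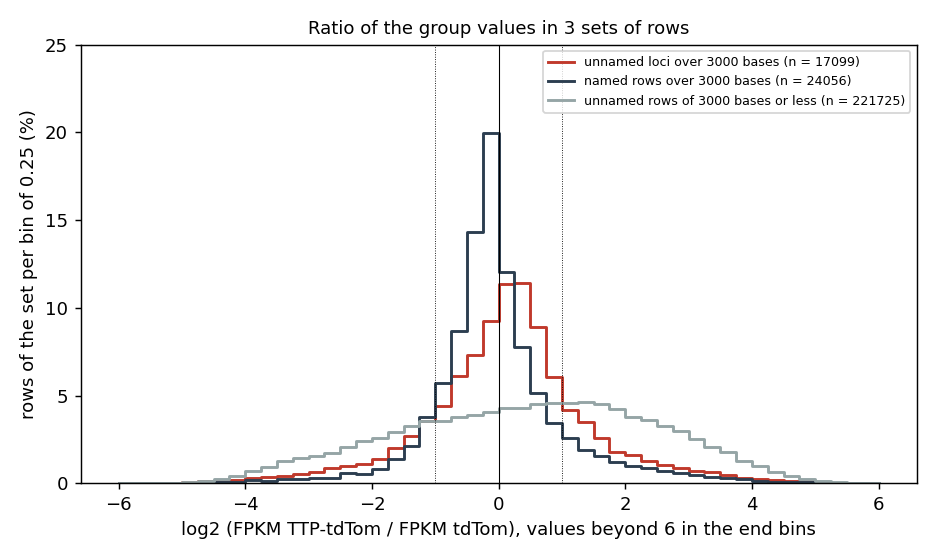
Share of rows (%) per bin of 0.25 against the log2 ratio of TTP-tdTom to tdTom, for the members and for 2 other sets of rows; dotted lines mark 2-fold. The members' median is 0.17, between -0.12 of the named rows over 3000 bases and 0.55 of the short unnamed rows; without chromosomes 10 and 14 it is -0.036.

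The median over all members covered groups that pointed in opposite directions. The 328 members alone in their span had a median of -0.28, with 214 (65.2%) lower in TTP-tdTom and 46 lower against 13 higher by 2-fold. Named rows had -0.24 at 1 FPKM or more in each group, and -0.12 over 3000 bases at any level. Relative to the first of these, the members over a named row turned from -0.13 to 0.11. The 12265 that shared a span with unnamed rows only had a median of 0.24 (1497, or 12.2%, lower and 2326, or 19.0%, higher by 2-fold). The 4506 that shared a span with a named row had -0.13, and both directions were frequent (1098 and 1036). By span length, the medians were 0.23 at over 3000 to 5000 bases (n = 4604), 0.29 at over 5000 to 10000 (n = 3491) and 0.05 above 10000 (n = 9004). Without chromosomes 10 and 14, the median was 0.082 at over 3000 to 5000 bases and -0.17 above 10000 bases. For members alone in their span, where the length is that of the locus, the longest class was the highest. The 219 of up to 5000 bases had -0.38, with 34 (15.5%) lower and 3 (1.37%) higher by 2-fold. The next 57 had -0.14, and the 52 above 10000 bases had 0.22. The level differed with length in these classes. The median mean FPKM of the lone members was 1.03, 1.02 and 0.370, and its part in the order was not tested.

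By level, 16130 members (94.3%) had a mean FPKM from 0.3 to under 3. The 11348 from 0.3 to under 1 had a median log2 ratio of 0.23 and the 4782 from 1 to under 3 had 0.09. All members with a mean of 1 or more had 0.02, and -0.23 without chromosomes 10 and 14. From 3 to under 10 the median was -0.52 (n = 432, with 324 lower by any amount, 105 lower by 2-fold and 46 higher), and from 10 upward it was -0.36 (n = 60, 43 lower). Only 15 members had a mean under 0.1, with a median of -0.02. Named rows over 3000 bases changed sign along the same scale, with 0.21 from 0.3 to under 1, -0.11 from 1 to under 3, and -0.27 in both classes above. In the class from 3 to under 10, 8.41% of named rows and 24.3% of members were lower by 2-fold, and 0.557% of named rows and 10.6% of members were higher. By distance, members that overlapped or touched a named row had -0.13 (n = 4512). Those within 5000 bases had 0.10 (n = 2715), those at 5000 to 50000 had 0.26 (n = 4273), and those farther away had 0.27 (n = 5365). Without chromosomes 10 and 14, the last of these medians was 0.013. Another 234 had no named row on their sequence. The quartiles of every class overlapped those of its neighbours.

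**Figure D2:**
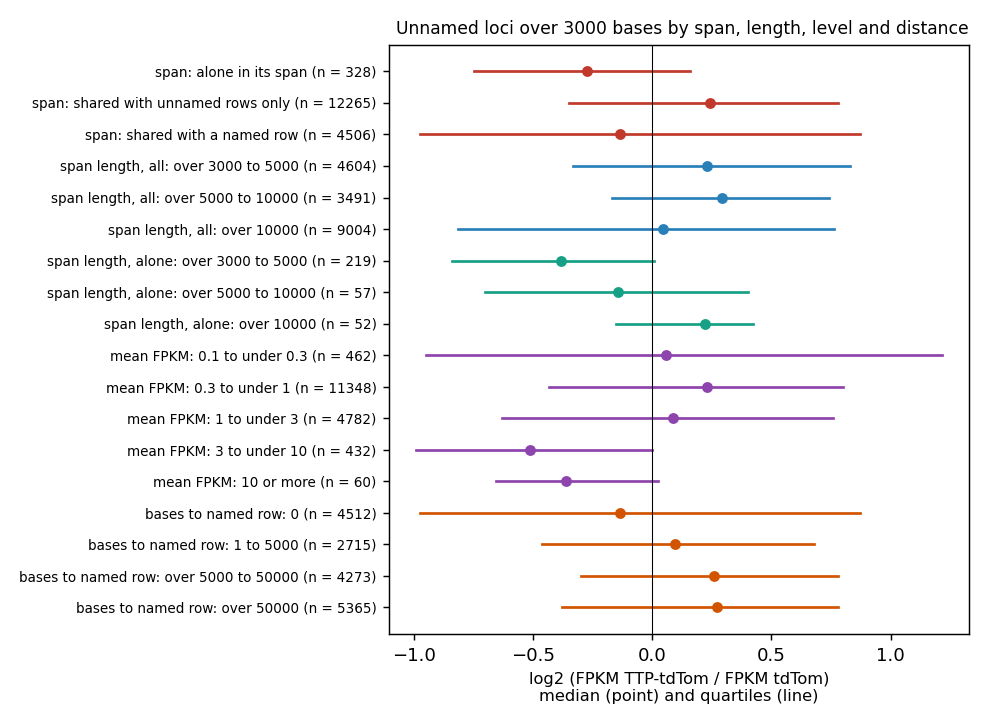
Median (point) and quartiles (line) of the log2 ratio of TTP-tdTom to tdTom in classes of members by span, span length, mean FPKM and distance to the nearest named row. Lone members of up to 5000 bases (-0.38) and members with a mean FPKM from 3 to under 10 (-0.52) lie lowest.

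Chromosomes 10 and 14 held 41.4% of the members, with 4425 on chromosome 10 and 2652 on chromosome 14. They held 8.95% of the named rows over 3000 bases and 10.7% of the short unnamed rows. Members there had a median log2 ratio of 0.33, with 543 (7.67%) lower and 1206 (17.0%) higher by 2-fold. The 10022 members elsewhere had -0.04, with 2098 (20.9%) lower and 2169 (21.6%) higher. The lowest chromosome medians were -0.69 on X (n = 157), -0.61 on 4 (n = 311), -0.39 on 13 (n = 142) and -0.38 on 9 (n = 247). Outside chromosomes 10 and 14 the numbers lower and higher by 2-fold were thus close to each other. Over all rows above 0 in both groups, 22.6% were lower and 37.4% higher by 2-fold. The share of members higher by 2-fold was below that of all rows on chromosomes 10 and 14 and elsewhere.

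Strand divided the spans further. In 42 spans of 10 or more members with no named row, the leading strand held 60% of members or less. Their 494 members had a median of 0.39, near the 0.37 of all 299089 rows above 0 in both groups. The span median was above 0 in 41 of 42. Of these spans, 37 lay on chromosomes 10 and 14. In 52 spans, over 95% of the members were on 1 strand. Their 1340 members had a median of -0.33, and the span median was below 0 in 34. By 2-fold, 406 (30.3%) of these members were lower and 312 (23.3%) higher, against 22.6% and 37.4% of all rows. Between these, members of spans with a leading share of over 60% to 80% had 0.23 and those of over 80% to 95% had -0.20. In 79 spans that also held a named row, the members' medians were -0.15 at 60% or less (59 members in 2 spans, interval -0.39 to 0.15), -0.30 at over 60% to 80%, -0.15 at over 80% to 95% and -0.50 at over 95% (1277 members). The span median was below 0 in 60 of the 79, and in 46 of the 60 at over 95%. In spans without a named row, both ends kept their order outside chromosomes 10 and 14 (0.33 at 60% or less, -0.29 at over 95%) and on these chromosomes (0.40 and -0.35). They also kept it in spans of 4 to 9 members (0.34 and -0.30). The classes between them did not keep their sign. The class of over 60% to 80% had -0.04 outside chromosomes 10 and 14, and that of over 80% to 95% had 0.37 on them and 0.20 in spans of 4 to 9 members. The spans of 1 strand were longer, with a median of 90397 bases against 16927, and their members' median mean FPKM was 0.933 against 0.812. Which of these properties the ratio goes with was not tested.

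**Figure D3:**
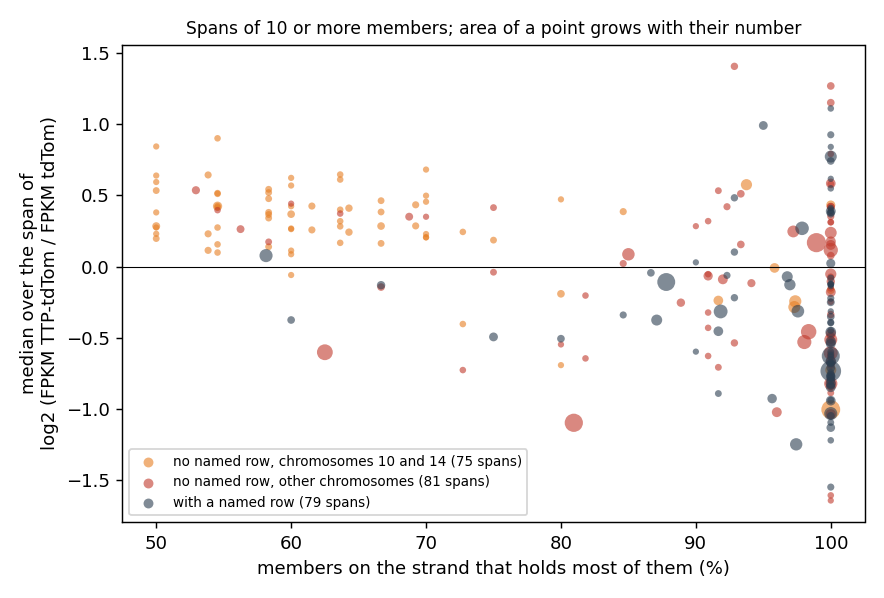
Median log2 ratio of TTP-tdTom to tdTom in each span of 10 or more members (vertical axis) against the percentage of its members on the leading strand (horizontal axis). Of the 42 spans without a named row at 60% or less, 41 lie above 0. At over 95%, 34 of 52 lie below 0. The median of all rows above 0 in both groups is 0.37.

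The mixed span with the most members among these 42 was chr10:80116456-80184392, with 12 members on the plus and 10 on the minus strand. The median FPKM was 0.576 in tdTom and 0.791 in TTP-tdTom, and 19 of the 22 members were higher in TTP-tdTom. On chromosome 12, chr12:28197294-28229883 between PTHLH, which encodes parathyroid hormone-like hormone, and CCDC91 had 8 and 9 members, with 0.790 and 1.07 FPKM. With 62.5% of its members on the leading strand, chr3:80680931-80922691 between the axon guidance receptor gene ROBO1 and GBE1 of glycogen synthesis differed from these. It had 24 plus and 40 minus members, a median of -0.60 and 45 of 64 lower. At chr4:19295873-19738167, between LCORL and the axon guidance gene SLIT2, 68 members were on the plus and 16 on the minus strand. They had 1.5 and 0.730 FPKM, and 72 of 85 were lower (-1.10). Where a span held exactly 2 members on opposite strands and no named row (354 spans), the ratios of the 2 strands had a Spearman rho of 0.00 across spans. In the 25 of these spans with a mean FPKM of at least 1 on both strands it was 0.34. The 2 strands had the same direction in 19 of these 25 spans and in 196 of all 354. Outside chromosomes 10 and 14 they did in 128 of 248.

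Long spans between genes with over 95% of their members on 1 strand are given here from the most members down to 43. At chr3:174157458-174455473, between NLGN1 of synaptic adhesion and NAALADL2, 44 of 94 were lower (median 0.17). At chr10:109941499-110324393, SORCS1 is 1017032 bases away on one side and XPNPEP1 1300130 bases on the other. All its 91 members were on the minus strand, the median FPKM was 1.57 in tdTom and 0.773 in TTP-tdTom, and 73 of 91 were lower (-1.0). RefSeq lists 18 genes between the same 2 neighbours in its later build. At chr5:84955561-85154446, between EDIL3 and NBPF22P, 37 of 61 were lower, with 1.15 and 1.07 FPKM (-0.46). At chr11:121505885-121777197, which starts 978 bases beyond the sorting receptor gene SORL1, 26 of 52 were lower (0.12). At chr2:174394673-174626413, between CDCA7 and the transcription factor gene SP3, 35 of 51 were lower (-0.53). At chr1:72984737-73232372, near NEGR1, 33 of 50 were lower (-0.61). At chr21:19942571-20132953, all 45 members on the minus strand, 32 were lower (1.90 and 1.33 FPKM, -0.82). At chr2:168149719-168393271, between XIRP2 and B3GALT1, 25 of 43 were lower (-0.51). Of these 8 spans, 6 had a median below 0. Smaller spans, picked after their values were seen, ranged more widely. At chr2:114082260-114144702, 23 of 25 were lower, with 1.36 and 0.542 FPKM (-1.02). At chr2:181556753-181782778, between CWC22 and UBE2E3, 16 of 36 were lower (0.24). The lowest median among spans of over 95% without a named row was -1.64, at chr5:89555943-89599196, with 0.965 and 0.388 FPKM and 8 of 10 lower. The highest was 1.27, at chr5:99786288-99870964, with 0.329 and 0.810 FPKM and 11 of 15 higher. Members of such spans differed widely among themselves, and the quartiles of all 1340 were -1.18 and 0.88.

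Spans with a gene inside were described by strand. In spans that held a single gene, 1293 members on the gene's strand had a median of -0.33, with 356 (27.5%) lower and 271 (21.0%) higher by 2-fold. The 1400 on the other strand had 0.13, with 268 (19.1%) lower and 379 (27.1%) higher. Of all rows, 22.6% were lower and 37.4% higher by 2-fold. Each host gene was counted once per member, so genes of spans with many members weigh more. Counted so, the host genes' median was -0.36 for members on the gene's strand (n = 1263 pairs with the gene above 0). For those on the other strand it was -0.25 (n = 1398). Across members, however, the ratio of a member and of its host gene had a Spearman rho of 0.03 on the gene's strand and -0.02 on the other. The spans named next were picked after their values were seen, and some hold more than 1 gene. The span of KIAA0182 and LINC00311 (chr16:85204095-85711077) held 109 members, all on the plus strand, with 0.794 and 0.563 FPKM and 78 lower (-0.73). In that of IQSEC1, an exchange factor of ARF GTPases (chr3:12938488-13324496), 60 of 83 were lower (-0.63). In that of MGAT5, a glycosyltransferase (chr2:134876041-135212896), 32 of 39 were lower, with 1.81 and 0.811 FPKM (-1.25), and the row of MGAT5 itself had 34.8 and 30.8 (-0.18). The span of MIR4435-1 had 32 of 44 lower (-1.03). Other large spans with a gene inside differed less. In that of SIPA1L1, 46 of 82 were lower (-0.11), and in that of LYPLAL1, 28 of 49 (-0.32). In that of TTC32, 23 of 47 were lower (0.27), and in that of SOX30 and THG1L, 20 of 44 (0.08). In the span of ARHGAP28, 25 of 37 were higher (0.77). Over all members and their nearest named row at any distance, the Spearman rho was 0.06 (n = 16395). Members and named rows share the same 2 groups of libraries, and neighbours share a named row.

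Of all members within 5000 bases downstream of a gene on its strand (n = 529), 76 (14.4%) were lower and 91 (17.2%) higher by 2-fold. Their median was -0.07, and the rho with the gene was 0.05 (n = 527). Where member mean and gene were at 1 FPKM or more, the median was -0.17 and rho 0.13 (n = 188). Lone members are described separately. With a mean FPKM of at least 1, and with a named row of at least 1 FPKM in both groups within 50000 bases, 41 lone members lay downstream of 39 genes on the gene's own strand. Of these, 36 were lower in TTP-tdTom, 11 by 2-fold or more, and none was higher by 2-fold. The genes beside them were lower in 37 of the 41 pairs. Of all rows 41.8% were lower, 22.6% were lower by 2-fold and 37.4% higher by 2-fold. Of the named rows at 1 FPKM or more in each group, 80.5% were lower. Of the 41, 10 had under 1 FPKM in TTP-tdTom, 5 of the 11 among them, and reached the mean of 1 through tdTom. None had under 1 in tdTom. In the 31 with at least 1 FPKM in each group, 26 were lower, 6 by 2-fold, with a median of -0.51. Their genes had a median of -0.30, and 19 of the 31 members were below their gene. The median of all 41 was -0.58 (quartiles -1.05 and -0.26), against -0.30 for the genes beside them, and 28 of 41 were below their gene. The ratios of member and gene had a Spearman rho of 0.51 and a Pearson r of 0.55 across these pairs. In the 26 pairs within 5000 bases the medians were -0.79 and -0.32 and rho was 0.55. In the 15 pairs farther away they were -0.38 and -0.30, with a rho of 0.46. Of the 26 near members 6, and of the 15 farther ones 4, reached the mean of 1 only through tdTom. The medians by distance include them. Upstream on the other strand, where divergent promoters lie, 14 lone members had a median of -0.14 against -0.27 for their genes, with a rho of 0.50. In the 11 of these pairs within 5000 bases the medians were -0.10 and -0.22 and rho was 0.15. The 3 farther pairs lay beside 2 genes. Of the 14, 2 reached the mean of 1 only through tdTom and 2 only through TTP-tdTom. At this level the other positions held few lone members. Upstream on the gene's strand, 6 of 8 were lower, with a median of -0.45 against -0.31 and a rho of 0.74. Downstream on the other strand, 7 of 7 were lower, with a median of -0.43 against -0.15 and a rho of -0.29. One of them, the only one lower by 2-fold, had under 1 FPKM in TTP-tdTom, and the other 6 had a median of -0.29. With lower levels included, the downstream set on the gene's strand had 66 members, 51 of them lower, a median of -0.45 and a rho of 0.23. Upstream on that strand 15 of 23 were lower (-0.26). On the other strand 16 of 33 were lower downstream (0.08) and 15 of 34 upstream (0.05), so these medians were above 0. Differences between positions were not tested.

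**Figure D4:**
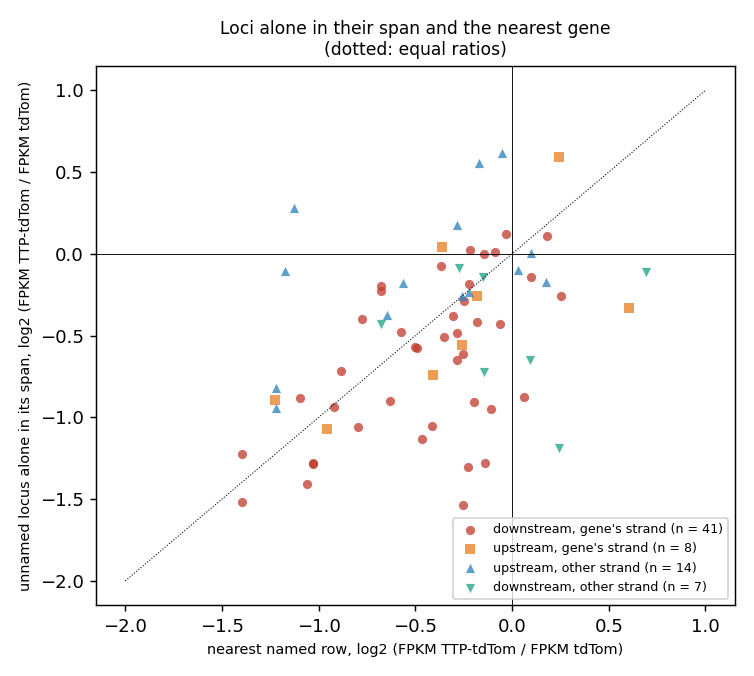
Log2 ratio of TTP-tdTom to tdTom of lone members with a mean FPKM of at least 1 (vertical axis) against that of the nearest named row (horizontal axis), by side and strand; the dotted line marks equal ratios. Of the 41 members downstream on the gene's strand, 36 lie below 0 and 28 below the dotted line. Of the 41, 10 reached the mean of 1 only through tdTom. In the 31 with at least 1 FPKM in each group, 26 lie below 0 and 19 below the dotted line.

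Several of these downstream loci can be named by their gene. XLOC_309971 (chr5:167975382-167978655), 910 bases past the pantothenate kinase gene PANK3, had 5.63 FPKM in tdTom and 2.13 in TTP-tdTom (-1.41), and PANK3 had 29.4 and 14.1 (-1.06). XLOC_191308, 906 bases past ASXL2, a chromatin regulator, had 5.01 and 2.41 (-1.06), and ASXL2 23.1 and 13.3 (-0.79). XLOC_006060, beyond the Golgi nucleotide sugar transporter gene SLC35A3, had 2.55 and 1.09 (-1.22) and SLC35A3 18.6 and 7.09 (-1.39). In these pairs locus and gene were lower together. XLOC_090491 and XLOC_090492, both past the diacylglycerol kinase gene DGKH, had -1.28 and -1.29 against -1.03 for DGKH. XLOC_244014, 238 bases past the GMP synthase gene GMPS, had 13.4 and 9.43 (-0.51) against 56.7 and 44.4 (-0.35). XLOC_078654, at 13656 bases from the centrosomal gene NEDD1, had 1.94 and 0.675 (-1.52) against 21.5 and 8.15 (-1.40). In other pairs the gene's log2 ratio was only -0.25 to -0.11. XLOC_091006, 108 bases past SUGT1, a co-chaperone gene, had 3.50 and 1.44 (-1.28), while SUGT1 had 45.0 and 40.9 (-0.14). XLOC_038135 past LCOR had 2.41 and 0.978 (-1.30) against -0.23. XLOC_016421, at 18459 bases from HNRNPR, a gene of mRNA packaging, had 2.30 and 0.792 (-1.54) against -0.25. XLOC_061355 past TAF10 of the TFIID complex had 2.10 and 1.09 (-0.95) against -0.11. XLOC_038135 and XLOC_016421 reached the mean of 1 only through tdTom. So did XLOC_078654 and XLOC_090492 (0.952 in TTP-tdTom) above. XLOC_266666, 256 bases past the mRNA-binding protein gene IGF2BP2, had 1.27 and 1.29 (0.01) against -0.09, so that both values were near equal in the 2 groups. XLOC_154822, 170 bases upstream of the myosin light chain gene MYL12A on the other strand, had 1.5 and 1.82 (0.28) while MYL12A had 91.5 and 41.9 (-1.13). XLOC_167446, upstream of NUDT19 on the other strand, had 1.55 and 1.43 (-0.11) against 19.5 and 8.66 (-1.17). At these 2 genes the ratio of the locus on the opposite strand was closer to 0 than that of the gene. These 14 loci were picked as examples after their values were seen.

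Few members were highly expressed, and 42 reached 10 FPKM in each group. The highest, XLOC_402965 (chrX:110537007-110664835, minus strand), lay in the span of the neuronal gene DCX and had 1525 FPKM in tdTom and 987 in TTP-tdTom (-0.63), while DCX itself had 0.174 and 0.295. For scale, the nuclear noncoding RNA MALAT1 had 1074 and 741 (-0.54), NEAT1 34.9 and 25.1 (-0.48), GAS5 17.9 and 15.1 (-0.25), MIR17HG 2.83 and 2.04 (-0.47) and KCNQ1OT1 7.33 and 7.42 (0.02). XLOC_000007 (chr1:567037-570306), alone in its span, had 454 and 379 (-0.26). This stretch of chromosome 1 is known as a nuclear copy of mitochondrial DNA, so its reads cannot be assigned with certainty. XLOC_314564 (chr6:42714081-42727656), in a span 196 bases from TBCC, a tubulin folding factor gene, had 498 and 91.8, 5.42-fold lower in TTP-tdTom, and TBCC had 16.9 and 15.3. XLOC_177584 (chr2:89157019-89160434) went the other way, with 6.68 and 180 (4.75). XLOC_195917, the other row of that span on the opposite strand, had 5.16 and 68.7 (3.73), so both strands of the span were higher. XLOC_392373 (chr9:96933577-96937187, minus strand), in a span 1051 bases from the let-7a microRNA gene MIRLET7A1, had 146 and 194 (0.41), and MIRLET7A1 was listed at 0 in both groups. XLOC_250935, in the span of GHRLOS, had 75.2 and 77.0 (0.03). XLOC_036235, in a span of 40 rows at chr10:67329898-67476023, had 71.8 and 48.0 (-0.58).

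Of lone members besides XLOC_000007, XLOC_276712 (chr4:183735248-183740264), at 11070 bases from ODZ3, had 87.8 and 59.5 (-0.56). XLOC_092704 (chr13:109919095-109925526), at 58739 bases from MYO16, had 82.6 and 56.4 (-0.55), while the myosin gene MYO16 had 0.145 and 0.153. Both loci were far above the gene nearest to them. XLOC_257820 on chromosome 3, at 186909 bases from any named row, had 11.2 and 4.25 (-1.40). XLOC_401135 on chromosome X, at 56386 bases from the microRNA gene MIR221, had 8.63 and 4.20 (-1.04), and MIR221 40.1 and 21.8 (-0.88). XLOC_163181, at 12492 bases from CIC, had a log2 ratio of 0.16, and XLOC_405787 on the decoy sequence had 16.1 and 16.2 FPKM (0.01). XLOC_325228 (chr6:110864775-110868789), at 62360 bases from the kinase gene CDK19, was the only lone member with a mean FPKM of at least 1 that was higher by 2-fold, with 6.50 and 32.7 (2.33), and CDK19 had 3.80 and 1.26 (-1.59). Most of the highest lone members were thus lower in TTP-tdTom, as the plot of the members with the highest levels shows. So were 80.5% of the named rows at 1 FPKM or more in each group.

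**Figure D5:**
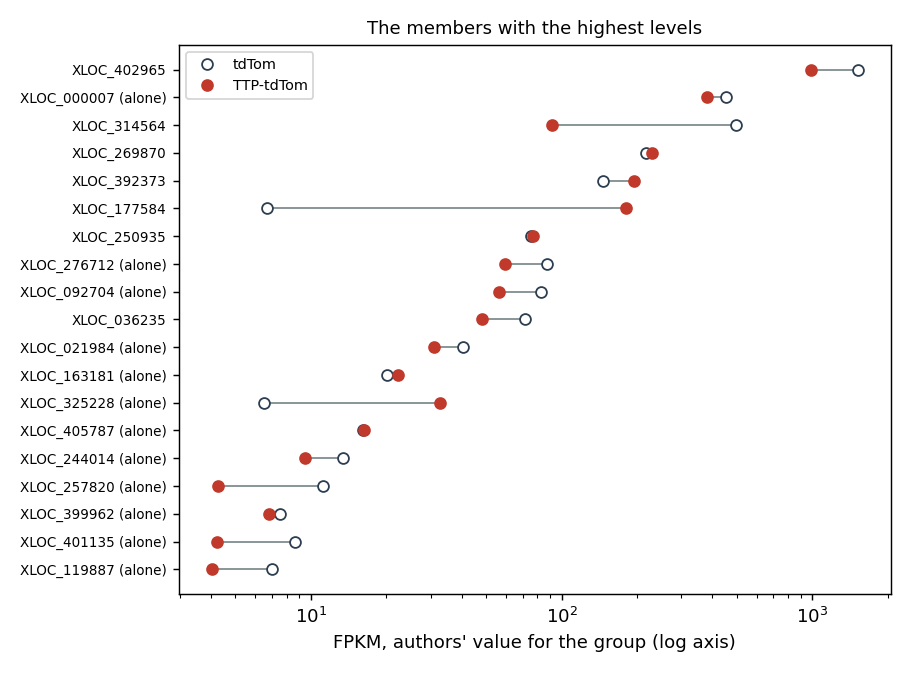
FPKM of the group tdTom (open points) and TTP-tdTom (filled points), on a log axis, in the 10 members with the highest mean and in the 12 lone members with the highest mean, of which 3 belong to both. XLOC_314564 is lower in TTP-tdTom (498 and 91.8), and XLOC_177584 (6.68 and 180) and XLOC_325228 (6.50 and 32.7) are higher.

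In the members with the largest ratios, 1 of the 2 groups had a low value. Among 14320 members with a mean FPKM of at least 0.5, the lowest log2 ratio was -5.29 at XLOC_033037 (1.64 FPKM in tdTom and 0.0417 in TTP-tdTom), at 149725 bases from the Wnt inhibitor gene DKK1 (312 and 149, -1.06). XLOC_059717 in the span of GRAMD1B followed with 9.16 and 0.246 (-5.22), and XLOC_078083 with 3.93 and 0.108 (-5.19). XLOC_086586 and XLOC_086589, both in the span of SOCS2, a suppressor of cytokine signalling, had -5.08 and -5.00, while SOCS2 had -0.12. XLOC_020875 in the span of DPYD, XLOC_180566 in that of MGAT5 and XLOC_400153 beside HCCS had -5.03, -5.01 and -5.00. The highest were XLOC_066370 in the span of SHANK2 (0.0333 and 1.71, 5.68), XLOC_186549 beside ACSL3 (5.52), XLOC_102262 (5.32), XLOC_074276 in the span of CCDC91 (5.31), XLOC_235667 in that of RASSF1 (5.24), XLOC_103503 (5.17), XLOC_092268 (5.16) and XLOC_161581 in that of ZNF564 (5.04). In each of these 16 the lower group had between 0.0276 and 0.246 FPKM. Of the 223 members with a log2 ratio of 4 or more in either direction, 204 had under 0.2 FPKM in the lower group. So large a ratio brings a low value in 1 group unless the other is high. These counts therefore do not describe the members' mean level. The table does not give how many fragments stand behind such values.

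The longest span, chr20:13976024-16033841, covers 2057818 bases around MACROD2, and its first 5 members, rows XLOC_208258 to XLOC_208262, all on the plus strand, had log2 ratios of -3.80, 1.57, -1.83, -2.68 and 2.13. MACROD2 was listed at 0 in tdTom and had 4.45 in TTP-tdTom. The members farthest from a named row, XLOC_063409 and XLOC_063410 at chr11:38346317-38358769, were 1665489 bases away and had 0.34 and 1.86. The next 3, on chromosome 2 beside the centromere (XLOC_177656, XLOC_195994 and XLOC_177648), had 0.84, 1.61 and 0.59. All 5 were higher in TTP-tdTom, at a level of 0.209 to 1.27 FPKM.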

How the data were processed

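RNA-Seq of 6 samples, 3 per group, was processed by the authors. Strand-specific paired reads were aligned to Hs37D5 (GRCh37 with decoy sequence) and assembled; the submitters' processing notes name TopHat2 2.0.13 and Cufflinks 2.2.1. The authors' deposited values are FPKM, 1 per group and row, already scaled to transcript length and library size. The authors' comparison columns (status, fold change, statistic, p, q and call) were not used. The design was kept as written.

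Here log2 ratios of TTP-tdTom to tdTom were computed without pseudocount. A symbol field of commas alone was taken as no symbol. Spans are the coordinates of the table, with starts counted from 1. Strand was read from the order of identifiers along each chromosome and checked on 15738 symbols with 1 row, of which 99.3% matched GENCODE release 29. Of 10041 rows whose symbol stands at 2 or more rows, 37.1% matched, and the reason was not tested. Distance runs to the nearest named row on the chromosome. Medians have order-statistic intervals and shares exact binomial ones, at 95%. Counts of rows lower or higher by 2-fold were checked on simulated data, and the coverage of the intervals was not tested. RefSeq (GRCh38) and GENCODE gave names, strands and sequences, and no coordinates of that build are printed.

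Members, classes and lists were chosen with earlier results of these data known. The rule names the 10 members with the highest mean FPKM, the 8 lowest and 8 highest ratios at a mean of 0.5 or more, the 5 longest, the 5 farthest from a named row and 3 on each side of the length threshold, with their named neighbours, markers and 8 long noncoding RNAs, of which SNHG1, NORAD and DANCR had no row under these symbols. Part of the marker list is not reported here. Other loci, spans and genes were added after their values were seen. Length and FPKM thresholds, pseudocount, centring and chromosomes were varied. Python 3.11.15, numpy 2.4.6, pandas 2.3.3, scipy 1.17.1 and matplotlib 3.10.9 were used.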

Additional observations from a re-analysis of the deposited data

How the results depend on the processing

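No paired analysis was possible because only 1 pooled value stands for each group. No replicate could be left out and no replicate block fitted. Of 75 alternatives, 37 left a value in its interval, within 1.5 times a count, or within 0.05 of a correlation, 27 moved it further and 11 reversed its direction. The member median of 0.17 was 0.14 at over 5000 bases, 0.15 and 0.070 with pseudocounts of 0.1 and 1, 0.41 when centred on named rows, and -0.10 with at least 1 FPKM in both groups. The lower share was then 44.0%, 42.6%, 42.6%, 33.6% and 56.7%. A pseudocount cannot change which group has the lower value, so the share of 42.6% under both pseudocounts was fixed in advance. These outcomes are counted among the 37. At 1 FPKM in both groups 2676 members remained by construction, with 220 lower and 109 higher by 2-fold. A pseudocount of 1 gave 505 and 660, 1.5-fold 4092 and 5349, and 4-fold 984 and 1315. Centring gave 0.29 above 10000 bases, 0.47 at 3000 to 5000, 0.26 at a mean FPKM of 1 or more, 0.22 under 0.1, 0.11 over a named row and 0.51 beyond 50000 bases from one. With a pseudocount of 0.1 the medians were 0.20 at 3000 to 5000 bases and 0.24 beyond 50000 bases. The following were chosen after seeing the data. Without chromosomes 10 and 14 the median was -0.036, 51.1% were lower and 2169 were higher by 2-fold; the class medians were -0.17 above 10000 bases, 0.082 at 3000 to 5000, -0.23 at a mean FPKM of 1 or more (0.02 with them), -0.19 over a named row and 0.013 beyond 50000 bases. Lone members had -0.28, 65.2% lower, 0.22 above 10000 bases and -0.38 at 3000 to 5000. With 1 median per span the value was 0.20. The causes were not tested. The table holds no counts, so no counting error at low FPKM is given.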
